A study of Mus musculus with 2 samples.

Results

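The E2F transcription factors and the retinoblastoma family were examined in mRNA sequencing of mouse lung cancer cells before and after *Runx3* restoration. The group holds 10 genes chosen by name from 23183 gene symbols, namely *E2f1*, *E2f2*, *E2f3*, *E2f4*, *E2f5*, *E2f7*, *E2f8*, *Rb1*, *Rbl1* and *Rbl2*. KPR- cells are immortalized cells grown from lung cancers of mice that had received no tamoxifen, and how many tumors or clones they represent is not given in the sources used here. The mice carried an oncogene that Cre activates, floxed *p53* on both chromosomes (flox/flox), *Runx3* as flox/FSF, a Tomato reporter, and the tamoxifen-dependent recombinase Flp ERT2. Cre from a nasally given adenovirus, driven by the broadly active *CMV* promoter, switched on the oncogene, removed *p53* and removed the floxed *Runx3* allele. By this design *p53* is deleted and the oncogene is active in both groups. In KPR- cells (labelled RUNX3 -/-) the remaining *Runx3* allele is blocked by a Frt-Stop-Frt cassette. In KPRrestored cells (labelled RUNX3 -/+) 4-hydroxytamoxifen (4-OHT) had activated the Flp recombinase, which cuts the cassette out. The libraries were labelled 0 h (KPR-) and 16 h (KPRrestored), and the labels list 1 μM 4-OHT for both. Each condition is 1 library, so no difference below has a replicate check, and the effects of *Runx3*, of 4-OHT and of time in culture cannot be told apart.

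The deposited values are FPKM, fragment counts scaled to transcript length and to a library total, so that levels can be compared between genes. The steps between low FPKM values placed this total, here called depth, at about 21800000 fragments for KPR- and 22400000 for KPRrestored. The paper also names a geometric normalization, so this total may differ from the number of fragments sequenced. A gene was called higher or lower when log2(FPKM + 0.005) differed by 0.5 or more between the libraries, which is 1.41-fold. Beside each difference stands its 95% counting interval (exact Clopper-Pearson limits on estimated fragments), which covers counting error only. *Runx3* had 0.348 FPKM in the library labelled KPR- and 0.349 FPKM in the library labelled KPRrestored. This value per gene did not separate the libraries and does not check the labels, so every direction below is that of the library labelled KPRrestored against the library labelled KPR-. The epithelial markers *Krt8* (1711 and 1631 FPKM), *Krt18* (1931 and 1676 FPKM) and *Epcam* (105 and 91.6 FPKM) were high in both, whereas the lung markers *Sftpc*, *Sftpb*, *Sftpa1*, *Napsa* and *Scgb1a1* were listed at 0 in both and *Nkx2-1* had 0.044 and 0.022 FPKM. The last of the 7 lung markers, *Foxj1*, a gene of ciliated cells, fell from 2.78 to 0.656 FPKM, a log2 difference of -2.07 with an interval of -2.68 to -1.56. Of 5 leukocyte markers, *Lyz2* and *Cd3e* were listed at 0 and *Ptprc* and *Cd79a* were at or near 0, so that nearly all of their summed level of 3.08 and 6.83 FPKM was *Cd68*. The summed levels were 1.16 and 2.22 FPKM for 3 endothelial markers and 12.7 and 5.35 FPKM for 6 fibroblast markers, mostly *Col1a1* (12.2 and 4.21 FPKM), while *Dcn* (0.173 and 0.742 FPKM) and *Pdgfra* (0.273 and 0.363 FPKM) had higher values in KPRrestored, *Lum* was listed at 0, and the part of such cells in the results was not tested. *Trp53* had 2.12 and 2.17 FPKM, and this value per gene does not check the deletion of *p53*. Of 20 reference genes, 1 (*Tfrc*) was lower by the threshold and 0 were higher, with a median of -0.02.

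E2F factors bind the promoters of genes needed for DNA replication and cell division, as dimers with a DP partner. RB and its relatives p107 and p130, the pocket proteins, bind most E2Fs and hold these promoters silent until cyclin-dependent kinases phosphorylate them near the restriction point of the cell cycle. By tradition E2F1, E2F2 and E2F3 are called activators, E2F4 and E2F5 are called repressors that work with pocket proteins, and E2F7 and E2F8 are atypical repressors that bind DNA without a DP partner or a pocket protein and damp E2F target genes late in S phase. Several of these genes are themselves E2F targets, and their promoters are known for E2F binding sites.

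The promoter stretches that follow show motif matches found in activator E2Fs, atypical E2Fs and a pocket protein, read from RefSeq on GRCm38.p6 in the direction of the gene. Capitals mark an E2F motif (TTTCCCGC, TTTCGCGC, TTTGCCGC or TTTGGCGC on either strand) or a CHR motif (TTTGAA on either strand, an element through which MuvB complexes bind). Such a match is a description of the letters and not a measured binding site. *E2f7* and *E2f8* are shown because they fell, *E2f2* because it rose, and *E2f3* and *Rbl1* because they carry a match near the start.
E2f2, chr4:136172294-136172323, plus strand: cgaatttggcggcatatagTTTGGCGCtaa
E2f3, chr13:29986064-29986163, minus strand: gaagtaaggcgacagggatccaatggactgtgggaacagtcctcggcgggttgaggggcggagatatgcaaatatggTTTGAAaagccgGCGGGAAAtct
E2f7, chr10:110745219-110745318, plus strand: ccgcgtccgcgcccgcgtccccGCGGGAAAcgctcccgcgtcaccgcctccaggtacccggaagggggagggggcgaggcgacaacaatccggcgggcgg
E2f8, chr7:48881597-48881696, minus strand: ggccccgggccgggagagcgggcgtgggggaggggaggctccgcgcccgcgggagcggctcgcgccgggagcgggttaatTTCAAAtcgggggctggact
Rbl1, chr2:157204535-157204634, minus strand: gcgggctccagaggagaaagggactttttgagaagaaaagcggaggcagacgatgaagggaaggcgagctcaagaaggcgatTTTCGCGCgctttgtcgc

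All 10 genes were expressed, with between 3.34 and 42.9 FPKM in KPR- and between 4.21 and 35.3 FPKM in KPRrestored. The atypical repressors *E2f7* and *E2f8* fell to 53.0% and 54.4% of their KPR- level, the activator *E2f2* rose 1.68-fold, and the other 7 genes stayed under the threshold. Thus 2 of 10 genes were lower by the threshold, against 9.29% of the 11231 expressed genes (mean FPKM of 1 or more in these libraries), and 1 of 10 was higher, against 12.1%. The median difference of the 10 genes was -0.21, against 0.0086 for all expressed genes, and 7 of the 10 were below 0, against 49.0%. The counting interval lay below 0 for 5 genes and above 0 for 2 genes, where 33.0% and 34.3% of 11140 genes did so, which leaves *E2f1*, *E2f5* and *Rbl2* with an interval that includes 0. With RNA from a whole culture, fewer cells in the phase of the cycle that expresses a gene and less RNA per cell cannot be told apart.

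**Figure D1:**
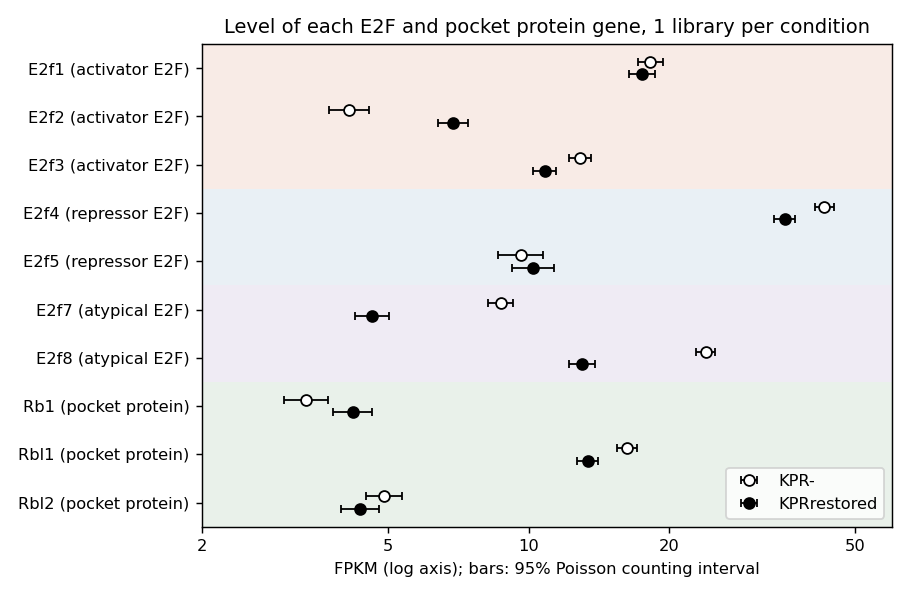
FPKM (log axis) of the 10 genes in the KPR- library (open points) and the KPRrestored library (filled points), with 95% Poisson counting intervals as bars and shading by class. *E2f4* was highest in both libraries, *E2f7* and *E2f8* lay lower in KPRrestored without overlap of the bars, and *E2f2* lay higher.

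The atypical repressors showed the largest falls among the 10 genes. *E2f7* (chromosome 10, 110745439 to 110787384, plus strand of GRCm38) had 8.72 FPKM in KPR- and 4.62 FPKM in KPRrestored. Its log2 difference was -0.91, with a counting interval of -1.07 to -0.76 from about 1000 and 545 fragments. Of the 11231 expressed genes, 208 (1.85%) had a lower difference than *E2f7*. *E2f8* (chromosome 7, 48866429 to 48881596, minus strand) had 23.9 and 13.01 FPKM, a log2 difference of -0.88 with an interval of -0.99 to -0.77, and 237 expressed genes (2.11%) were lower. Both genes thus lost a similar share of their level, and the ratio of *E2f8* to *E2f7* was 2.75 in KPR- and 2.81 in KPRrestored. Their summed level went from 32.7 to 17.6 FPKM, from 27.1% to 17.9% of the sum over the 7 E2F genes.

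The activator E2Fs had differences of both signs, and 1 of the 3 passed the threshold. *E2f2* (chromosome 4, 136172394 to 136196057, plus strand) had 4.12 FPKM in KPR- and 6.90 FPKM in KPRrestored. This rise of 0.74 on the log2 scale had a counting interval of 0.56 to 0.92, from about 407 and 700 fragments, and 643 expressed genes (5.73%) had a higher difference. *E2f1*, the activator best known for driving entry into S phase and, when unrestrained, cell death (chromosome 2, 154559407 to 154569892, minus strand), had 18.2 and 17.5 FPKM. Its log2 difference of -0.06 had an interval of -0.19 to 0.07, so counting error alone could account for it. *E2f3* (chromosome 13, 29906575 to 29986063, minus strand) had 12.9 and 10.8 FPKM, a difference of -0.25 with an interval of -0.37 to -0.14. The gene makes a long and a short protein from 2 starts, and the deposited value covers the transcripts of both. Because the gain of *E2f2* was offset by the lower values of *E2f3* and *E2f1*, the summed level of the 3 activators was 35.2 FPKM in both libraries. The share of *E2f2* in that sum went from 11.7% to 19.6%, and the ratio of the atypical to the activator sum went from 0.927 to 0.501.

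The repressor E2Fs that work with pocket proteins stayed under the threshold. *E2f4*, which is abundant in quiescent cells and has no strong activating role (chromosome 8, 105297663 to 105305370, plus strand), had the highest level of the 10 genes. Its 42.9 FPKM in KPR- and 35.3 FPKM in KPRrestored gave a log2 difference of -0.28, with an interval of -0.39 to -0.18. It held 35.6% and 35.9% of the sum over the 7 E2F genes, nearly the same share, since that sum itself went from 120.4 to 98.3 FPKM. *E2f5* (chromosome 3, 14578641 to 14606309, plus strand) had 9.64 and 10.2 FPKM, a difference of 0.08 with an interval of -0.13 to 0.31. The direction of *E2f5* is therefore not set by these counts. Its locus overlaps by 26 bases, on the opposite strand, with *1810022K09Rik*, which had 165 and 209 FPKM.

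The pocket proteins were a group of 3 in which no gene passed the threshold and the signs differed. *Rb1*, which encodes RB (chromosome 14, 73183673 to 73325822, minus strand), had 3.34 FPKM in KPR- and 4.21 FPKM in KPRrestored, a log2 difference of 0.33 with an interval of 0.12 to 0.55 from about 324 and 419 fragments. *Rbl1*, which encodes p107 and is itself known as an E2F target (chromosome 2, 157145893 to 157204534, minus strand), had 16.2 and 13.4 FPKM, a difference of -0.28 with an interval of -0.38 to -0.17. *Rbl2*, which encodes p130, the pocket protein typical of quiescent cells (chromosome 8, 91070057 to 91123844, plus strand), had 4.91 and 4.36 FPKM, a difference of -0.17 with an interval of -0.35 to 0.02. *Rb1* was the lowest of the 3 in both libraries, and *Rbl1* exceeded it 4.84-fold in KPR- and 3.18-fold in KPRrestored. Their sum was 24.5 and 21.9 FPKM, of which *Rb1* held 13.7% and 19.2%. *Rb1* shares its locus with *Rcbtb2* (5.41 and 5.84 FPKM) and *Lpar6* (6.33 and 6.06 FPKM), and *Rbl2* with *Aktip* (10.5 and 14.2 FPKM), all on the opposite strand. The libraries were directional, but whether strand was used in the estimation is not given in the sources used here. Reads of these neighbours, and of that of *E2f5*, may therefore contribute. Some annotated genes without a value here also overlap members. They include *Gm2788* at *E2f8* (3639 bases) and *Gm11365* at *E2f3* (1979 bases), on the opposite strand, and *Gm17233* at *Rb1* (3649 bases), on the same strand. Whether reads of these genes contribute was not tested.

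The order of the levels differed between the libraries below *E2f4*. In KPR- it was followed by *E2f8*, *E2f1*, *Rbl1*, *E2f3*, *E2f5*, *E2f7*, *Rbl2*, *E2f2* and *Rb1*, and the counting intervals of neighbours overlapped only between *E2f5* and *E2f7* and between *Rbl2* and *E2f2*. In KPRrestored *E2f4* was followed by *E2f1*, *Rbl1*, *E2f8*, *E2f3*, *E2f5*, *E2f2*, *E2f7*, *Rbl2* and *Rb1*. There the intervals overlapped between *Rbl1* and *E2f8*, between *E2f3* and *E2f5*, between *E2f7* and *Rbl2* and between *Rbl2* and *Rb1*. *E2f2* thus stood below *E2f7* in KPR- and above it in KPRrestored, and *E2f8* moved from above to below *E2f1*.

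**Figure D2:**
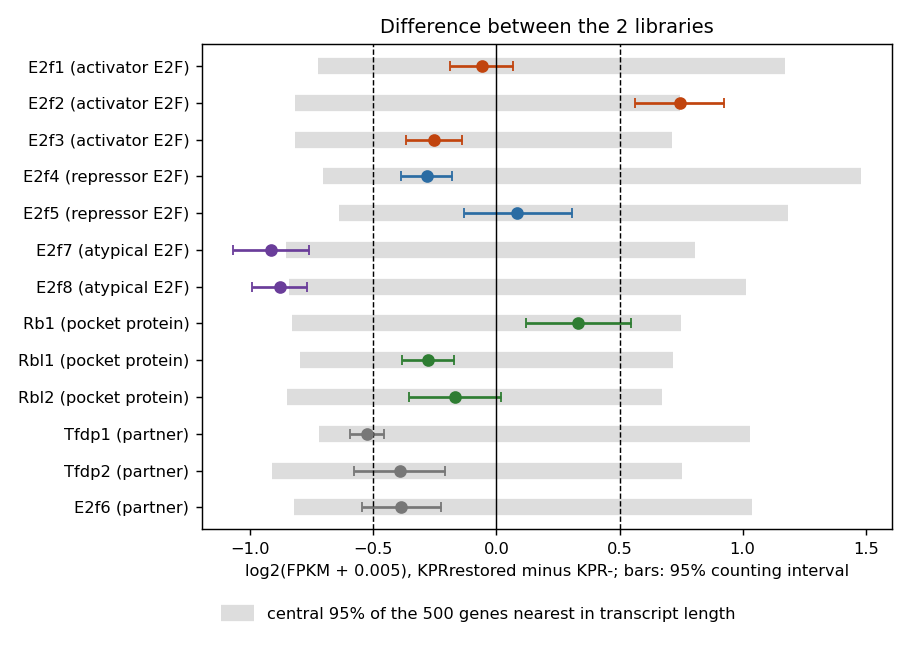
Log2 difference of each gene, KPRrestored minus KPR-, with its 95% counting interval (coloured points and bars) over the central 95% of the 500 expressed genes nearest in transcript length (grey bars), and dashed lines at -0.5 and 0.5. *E2f7* at -0.91 and *E2f8* at -0.88 lie beyond the lower end of their grey bars, and *E2f2* at 0.74 lies at the upper end of its own.

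Differences between these libraries moved with transcript length. When expressed genes were divided by length into 10 classes of similar size, the median was 0.08 in the class of the shortest transcripts and -0.19 in that of the longest. Most of the 10 genes are long, with a median of 4698 bases against 3014 for all expressed genes, and were therefore set beside the 500 expressed genes nearest to each in length. For *E2f7* (5473 bases) these neighbours had a median of -0.08, 13.8% of them were lower by the threshold, and 10 of 500 lay below *E2f7*. For *E2f8* (3691 bases) the median was -0.02 and 11 of 500 lay below it, and for *E2f2* (4739 bases) the median was -0.07 and 14 of 500 lay above it. With the length trend subtracted, the 3 differences were -0.82, -0.86 and 0.81. The smaller differences of *E2f3*, *Rbl1* and *Rbl2* went to -0.17, -0.20 and -0.09, and that of *Rb1* went to 0.39. That of *E2f4* went from -0.28 to -0.39, that of *E2f1* from -0.06 to -0.12 and that of *E2f5* from 0.08 to 0.0049.

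**Figure D3:**
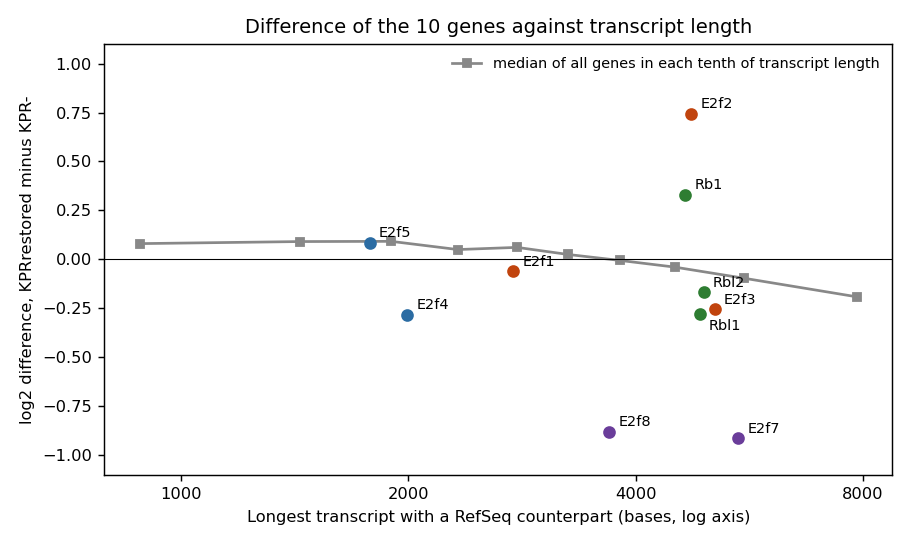
Log2 difference, KPRrestored minus KPR-, of the 10 genes against the length of their longest transcript with a RefSeq counterpart (log axis), with the median of all expressed genes in each of 10 length classes as a grey line. The grey line runs from 0.08 to -0.19, while *E2f7* and *E2f8* lie near -0.9 and *E2f2* near 0.74, away from it.

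The DP partners and *E2f6* had lower values in KPRrestored. *Tfdp1*, which encodes DP1, the main partner of the E2Fs, fell from 75.04 to 52.1 FPKM, a log2 difference of -0.53 with an interval of -0.60 to -0.46. *Tfdp2*, which encodes DP2, had 3.51 and 2.68 FPKM, a difference of -0.39. *E2f6*, a repressor that works with Polycomb proteins and without pocket proteins, had 15.3 and 11.7 FPKM, also a difference of -0.39. The counting intervals of all 3 lay below 0, against 33.0% of 11140 expressed genes. Only *Tfdp1* passed the threshold, where 9.29% of all expressed genes were lower by it. *Tfdp1* was expressed above each of the 7 E2F genes in both libraries.

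Of the 8 genes of the MuvB core and its partners, which join p107 or p130 with E2F4 in the DREAM complex or B-MYB in dividing cells, 1 was lower and 1 was higher by the threshold (12.5% each, near the 9.29% and 12.1% of all expressed genes). *Foxm1*, a factor for genes of mitosis, fell from 47.0 to 32.2 FPKM (log2 difference -0.55), and *Lin37*, a MuvB subunit needed for repression by DREAM, rose from 12.5 to 21.1 FPKM (0.75). *Mybl2*, which encodes B-MYB, had 34.2 and 24.99 FPKM, a difference of -0.45. The median of the 8 genes was -0.17.

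The 18 genes upstream of the pocket proteins were described by role. Among 8 cyclins and kinases, which inactivate pocket proteins, 3 fell and 0 rose by the threshold, against 9.29% lower and 12.1% higher of all expressed genes, with a median of -0.37. *Ccne2*, a cyclin E gene, fell from 4.42 to 1.89 FPKM (-1.22), *Ccnd1*, which encodes cyclin D1, fell from 331 to 203 FPKM (-0.71), and *Ccne1* fell from 11.98 to 6.97 FPKM (-0.78). Among 7 CDK inhibitors, which keep pocket proteins active, 2 rose and 0 fell, against 12.1% and 9.29%, with a median of 0.24. *Cdkn1a*, which encodes p21, rose from 14.2 to 39.6 FPKM (1.48) and *Cdkn2b*, which encodes p15, rose from 33.7 to 66.6 FPKM (0.98). The 3 phosphatase genes that can remove phosphate from RB were within 0.2 of no difference. Over all 18 genes the median was -0.11, -0.19 with the trend of transcript length removed and -0.06 over the 16 genes with a mean FPKM of 5 or more.

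Known E2F target genes that act around the start of S phase mostly had values below 0. Of 51 such targets, 24 (47.1%) fell and 0 rose by the threshold, against 9.29% and 12.1% of all expressed genes. Their median was -0.45, against 0.0086 for all expressed genes, and 49 of the 51 were below 0, against 49.0%. *Ung*, a DNA repair glycosylase, fell from 10.4 to 4.54 FPKM (-1.20) and *Pola1*, the catalytic subunit of DNA polymerase alpha, fell from 22.8 to 10.9 FPKM (-1.06). The only members above 0 were *Cdt1*, a loader of the MCM helicase, with 45.0 and 53.6 FPKM (0.25), and *Chek1*, a checkpoint kinase, with 7.04 and 7.17 FPKM (0.03).

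Of 36 genes that act in G2 phase and mitosis, many of them under MuvB control, 9 fell and 0 rose by the threshold, against 9.29% and 12.1% of all expressed genes, with a median of -0.23. *Mki67* and *Top2a* showed the largest falls, of -0.75 and -0.72 on the log2 scale, and *Ndc80*, a kinetochore gene, had the highest difference at 0.32. *Ube2c*, which helps to degrade mitotic cyclins, had 230 and 248 FPKM (0.10).

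Of 13 genes known as apoptotic targets of E2F1, 11 were expressed by the same limit, of which 3 rose and 1 fell by the threshold, against 12.1% and 9.29% of all expressed genes, with a median of 0.22. *Pmaip1*, which encodes NOXA, rose from 4.73 to 12.3 FPKM (1.37) and *Bbc3*, which encodes PUMA, rose from 2.92 to 7.39 FPKM (1.34). *Trp73*, the E2F1 target that encodes p73, was listed at 0 in both libraries. *Apaf1*, the apoptosome scaffold, had 8.67 and 7.90 FPKM, a difference of -0.13. The difference of *E2f1* itself was -0.06, and whether E2F1 had a part in the values of this list was not tested.

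**Figure D4:**
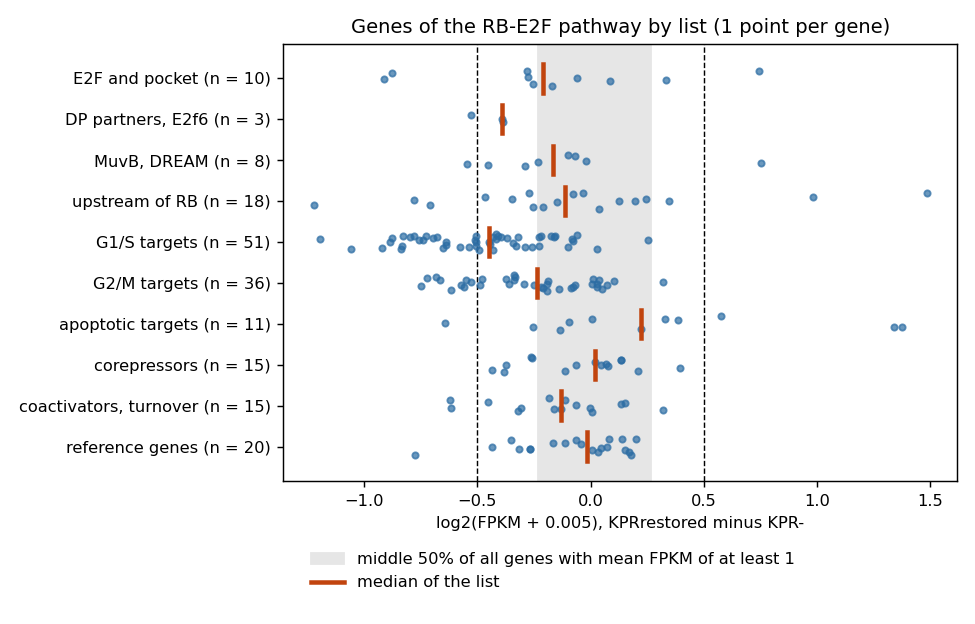
Log2 difference, KPRrestored minus KPR-, of each expressed gene (blue points) in the lists of the pathway and in 20 reference genes, with the median of each list (red bars), the middle 50% of all expressed genes (grey band) and dashed lines at -0.5 and 0.5. The G1/S targets have the lowest median (-0.45), and the apoptotic targets have the highest (0.22).

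Promoter windows (250 bases before to 50 after a start) were found for 7 of the 10 genes, as 9 windows. An E2F motif occurred in 4 of the 9 (44.4%), against 2.26% of 32851 windows of all genes, expressed or not. Among expressed genes with windows, 419 held the motif and 8175 did not. The windows of the 10 genes were richer in G and C, with a median of 64.0% against 52.7%. The matches lay at 40 to 47 after the start in *E2f2*, at -11 to -4 in *E2f3*, at -198 to -191 in *E2f7* and at -18 to -11 in *Rbl1*. Genes with a match were thus found among those that rose (*E2f2*), fell (*E2f7*) and stayed under the threshold (*E2f3*, *Rbl1*), and *E2f8* held no E2F motif but a CHR motif at -20 to -15 and a CCAAT motif at -112 to -108. CHR motifs occurred in 4 of the 9 windows (of *E2f2*, *E2f3*, *E2f8* and *Rbl2*) and in 17.9% of all windows. CCAAT motifs occurred in 5 of the 9 windows (55.6%, of *E2f2*, *E2f3*, *E2f7* and *E2f8*) and in 37.4% of all windows. Both motifs were thus also found in *E2f2*, which rose. RUNX motifs (TGTGGT or TGCGGT on either strand) occurred in 0 of the 9 windows and in 22.4% of all windows. The window of *E2f1* held no match to any of these letters, but it ends at 154569676, while the annotated gene reaches further upstream to 154569892. *E2f4*, *E2f5* and *Rb1* were not matched.

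**Figure D5:**
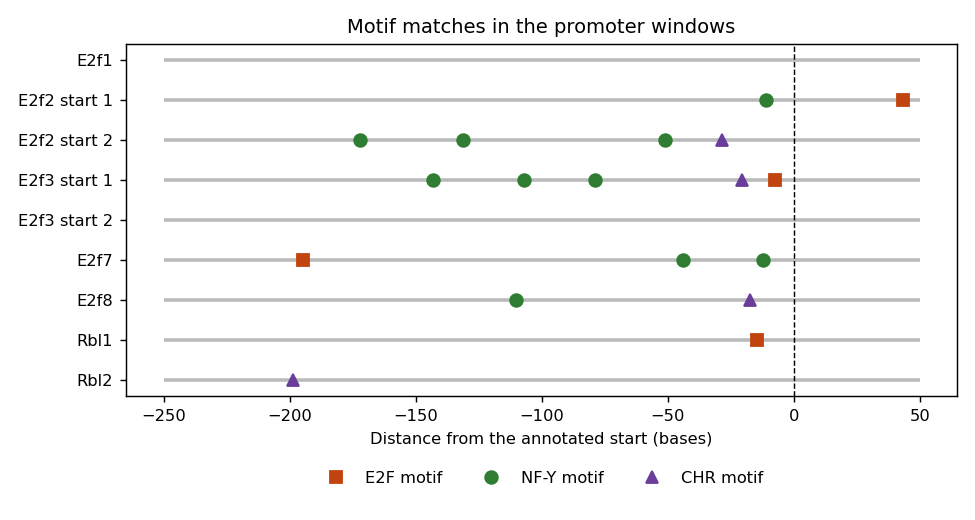
Matches to the E2F motif (squares), the CHR motif (triangles) and the NF-Y motif CCAAT (circles) in the 9 promoter windows, by distance from the annotated start in bases, with start 1 the one further upstream. E2F matches lie within 50 bases of the start in *E2f2*, *E2f3* and *Rbl1* and between -198 and -191 in *E2f7*, and the windows of *E2f1* and of start 2 of *E2f3* have none of the 3.

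Across the genome the same motif could be set beside the differences. Of 419 expressed genes with an E2F motif in a promoter window, 50 (11.9%) fell and 34 (8.11%) rose by the threshold, with a median of -0.09. Of 8175 expressed genes with windows but without the motif, 720 (8.81%) fell and 984 rose, with a median of 0.01. For the RUNX motif the medians were 0.01 with it (2065 genes) and 0.01 without it (6529 genes). Among windows of the G1/S targets, 19 of 48 (39.6%) held the E2F motif, and among those of the G2/M genes 1 of 33 (3.03%) did, while 22 of 33 (66.7%) held the CHR motif.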

How the data were processed

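Poly(A) RNA of KPR- and KPRrestored cells was sequenced in paired ends, 1 library per condition. The authors removed adapters and bases of low quality, aligned reads with TopHat (to mm10, per the submitters' processing notes) and deposited FPKM values from Cufflinks. The paper also names a geometric normalization with EdgeR. Versions and annotation are not given in the sources used here. Differences were taken on log2(FPKM + 0.005) with a threshold of 0.5. This scale understates the ratio of very low values, yet a single fragment can still pass the threshold. For *Ptprc*, 0 fragments in KPR- and about 1 in KPRrestored gave a difference of 1.48. Transcript lengths and positions came from GENCODE M21 (GRCm38, the same assembly as mm10), where 22148 symbols matched directly and 654 by a synonym.

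Fragments were estimated from the steps of low FPKM values in genes of a single transcript length, with a mean fragment length of 212.5 bases. With 0.5 to 4.5 fragments, 77.9% of values in KPR- and 79.9% in KPRrestored lay within 0.1 of a whole number. Values spread evenly, without a fit, would give 20%. Depth and fragment length were chosen to bring these same values close to whole numbers, so the shares describe the fit and are no separate check. For genes with several lengths the longest transcript with a RefSeq counterpart was used. Intervals and floors cover counting error only. Depth estimation was tested on simulated data with 1 known length per gene and counting error alone. The intervals there were computed from the simulated counts and true depths. Intervals on fragments estimated from FPKM, as used here, were therefore not tested. That simulation does not cover genes with several transcript lengths or reads from overlapping genes. Lists are described by counts and medians over genes whose mean FPKM was 1 or more, since 1 library per condition allows no test.

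All 10 genes are named, with *E2f6*, *Tfdp1*, *Tfdp2*, checks of the labels, and, from each other list of the pathway, the 2 genes that gained most and the 2 that lost most on log2(FPKM + 1). *Ccne1*, *Apaf1*, *Trp73*, *Tfrc* and the overlapping and marker genes were named after their values were seen. Some genes that this rule names are not reported here. The genes and lists were chosen with earlier results of these data known. Motifs and promoter windows were added after the values were seen. Alternatives were other pseudocounts, scalings, filters, a threshold of 1 and removal of the length trend. Scripts ran under Python 3.11.15 with pandas 2.3.3 and numpy 2.4.6, intervals came from scipy 1.17.1, and plots from matplotlib 3.10.9.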

Additional observations from a re-analysis of the deposited data

How the results depend on the processing

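With a threshold of 1 in place of 0.5, 0 of the 10 genes were lower and 0 were higher, since *E2f7*, *E2f8* and *E2f2* lie between these limits. With the trend of transcript length removed, the median of the G2/M genes was -0.32 against -0.23. The median of the 18 upstream genes, -0.11, was -0.06 over the 16 with a mean FPKM of 5 or more and -0.19 with the length trend removed. Of 54 alternative values for counts and list medians, 51 stayed within 1.5 times the count or, for medians, within the typical counting error of a gene in the list. All 70 values for single genes stayed within their own counting error under pseudocounts of 0.1 and 1, scaling to the same FPKM total or upper quartile, centring on the median gene, removal of the length trend and shorter transcripts. The median of all genes, 0.0086 as deposited, was 0.0022 when scaled to the same total, -0.03 when scaled to the same upper quartile and 0.00096 with the length trend removed. No paired analysis was possible because each condition has 1 library, and leaving out a replicate was not possible for the same reason. Counting error is small at 324 to 1816 fragments per gene, but the variation between cultures is unknown.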

Other observations

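Pocket proteins recruit corepressors to chromatin. Of 15 corepressor genes, 0 were lower and 0 were higher by the log2 threshold of 0.5, against 9.29% and 12.1% of all expressed genes, and their mRNA differences ran from -0.44 to 0.39 with a median of 0.02. The counting interval lay below 0 for 6 of them and above 0 for 2, where 33.0% and 34.3% of 11140 expressed genes did so. *Smarca2*, a remodelling ATPase, had 10.3 FPKM in KPR- and 7.61 FPKM in KPRrestored (-0.44), *Suv39h1*, a histone methyltransferase, had 54.3 and 41.6 FPKM (-0.38), *Sin3b*, a corepressor scaffold, had 52.4 and 68.9 FPKM (0.39), and *Kdm5a*, a demethylase found as an RB-binding protein, had 9.61 and 11.1 FPKM (0.21).

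Among 15 coactivators and genes of E2F turnover, 2 were lower by the threshold and 0 were higher, against 9.29% and 12.1% of all expressed genes, with a median of -0.13. *Ccnf*, which encodes cyclin F, a ubiquitin ligase subunit that targets E2F proteins, fell from 41.1 to 26.7 FPKM (-0.62), and *Skp2*, which targets p27, fell from 20.3 to 13.2 FPKM (-0.62). *Kat5*, an acetyltransferase, had 26.1 and 32.6 FPKM (0.32), and *Fzr1*, an activator of the anaphase-promoting complex, had 39.6 and 43.4 FPKM (0.13).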
